A study of Rattus norvegicus with 6 samples.

Results

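Macrophage genes were followed in the left ventricle of the rat heart. The set holds 9 of the 26456 gene names on the array. Folr2, Lyve1, Cd163 and Mrc1 are surface receptors of macrophages that live in the tissue, and are called resident-type here. Cd68, Csf1r, Cd14, Emr1 and Itgam are carried by macrophages in general. The names were picked with the difference between the strains already known, so the differences of these 9 genes are given as a description with no p. RNA came from 6 male rats, with 1 array per rat. The 3 OLETF rats are of an inbred strain that becomes obese and develops type 2 diabetes, and the 3 LETO rats are of its non-diabetic control strain. LETO 1, OLETF 1 and OLETF 3 were 27 weeks old and the other 3 rats were 28 weeks old. Strain and diabetes cannot be told apart in this design, since every OLETF rat is of the diabetic strain.

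Macrophages of the healthy heart lie between the muscle cells. They take up dying cells and debris, handle iron and haemoglobin, and are kept alive by signals through the CSF1 receptor. Part of this population was laid down before birth and renews itself in place, and it is known by surface receptors such as those of the resident-type genes. Another part is replaced by monocytes that enter from the blood and carry the chemokine receptor Ccr2.

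Each value below is the log2 of a probe's signal over the 75th percentile of its array, so 0 marks that percentile and 1 unit is a doubling. That percentile lay between 887 and 1228 intensity units. Between 75.55% and 79.80% of spots were well above background, and 0 spots were saturated. The first slide carried OLETF 1 beside all of the LETO arrays, and the second carried the remaining OLETF arrays, so slide and strain were partly mixed. LETO 1 stood apart from the other arrays, with a quality weight of 0.205 against 0.734 to 3.00 elsewhere. The number of arrays limits the precision.

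Folr2 and Lyve1 differed between the strains in opposite directions, and the other macrophage genes differed little. Folr2 was 3.85-fold higher and Lyve1 was 2.92-fold lower in OLETF. Of the 9 genes, 8 could be tested, and all 8 were well above background on all 6 arrays. In the limma fit over 18816 genes, 1 of them was called higher and 1 lower at an adjusted p of 0.05, where 2.55% of all genes were called (1.5% higher and 1.05% lower). The strains did not overlap in 2 of the 8, where they did not overlap in 17.4% of all genes. OLETF lay above for Folr2, as for 8.92% of all genes, and below for Lyve1, as for 8.43%. Since the genes were chosen on this contrast, nothing is read from these counts. In whole tissue, fewer cells of a type and less RNA per cell cannot be told apart.

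Folr2 encodes folate receptor beta, a receptor anchored in the membrane that binds folate and brings it into the cell. Its single probe lies at rn4 chr1:159295969-159296028, minus strand. The LETO arrays read −0.91, −1.04 and −1.13 and the OLETF arrays read 0.76, 1.02 and 0.97. All 3 OLETF arrays lay above all 3 LETO arrays, and OLETF 1, on the slide of the LETO arrays, was the lowest of its strain. The means were −1.02 ± 0.11 in LETO and 0.92 ± 0.14 in OLETF (SD, n = 3 each). The difference was 1.94 ± 0.11 (SE). It was 1.79 on the first slide alone and 2.00 without LETO 1.

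Lyve1 encodes a receptor for hyaluronan, a sugar chain of the matrix between cells, and it is also carried by the endothelium of lymphatic vessels. Its single probe lies at rn4 chr1:168601748-168601807, minus strand. The LETO arrays read −0.36, −0.34 and −0.67 and the OLETF arrays read −1.48, −2.29 and −2.24. All 3 OLETF arrays lay below all 3 LETO arrays. OLETF 1 was the nearest to LETO, and OLETF 2 and OLETF 3, on the second slide, lay further down and close together. The means were −0.46 ± 0.18 in LETO and −2.00 ± 0.45 in OLETF (SD, n = 3 each). The difference was −1.55 ± 0.22 (SE). It was −1.03 on the first slide alone, where only OLETF 1 stands for its strain, and −1.50 without LETO 1. The call of Lyve1 was lost with slide as a block, with no filter on dim probes, and on leaving out LETO 1, LETO 2, OLETF 2 or OLETF 3. Folr2 was called in each of these fits. Since both genes were chosen on this contrast, nothing is read from these calls.

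The difference of each of these genes rests on 1 probe, so the start of each probe, 30 of its 60 bases as the array files give it, is shown to identify what was measured. No letter is in capitals.
Folr2 NM_001106283: tgggactgtgtaccatgcagcaatacttct
Lyve1 NM_001106286: attttcagactagtttttgttgctgagact

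The other resident-type genes showed no such split. Cd163 encodes the scavenger receptor that takes up haemoglobin bound to haptoglobin (rn4 chr4:160423704-160423763, plus strand). Its LETO arrays read 0.01, −0.50 and −0.54 and its OLETF arrays read −0.38, −0.10 and −0.26. LETO 1 was the highest of the 6 and the other 2 LETO arrays were the lowest, so the OLETF arrays lay inside the LETO range. The difference was 0.10 ± 0.16 (SE). With 1 array left out it ran from 0.00084 (without LETO 3) to 0.27 (without LETO 1), and it was −0.03 on the first slide alone.

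Mrc1 encodes the mannose receptor, which binds sugars on glycoproteins and microbes (rn4 chr17:88489156-88491763, plus strand). Its LETO arrays read −3.27, −3.90 and −3.97 and its OLETF arrays read −3.50, −3.42 and −3.63. The order of the arrays was much like that of Cd163, with LETO 1 highest, the other LETO arrays lowest and the OLETF arrays between. The difference was 0.20 ± 0.19 (SE). With 1 array left out it ran from 0.07 (without LETO 3) to 0.42 (without LETO 1), and it was 0.22 on the first slide alone.

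**Figure D1:**
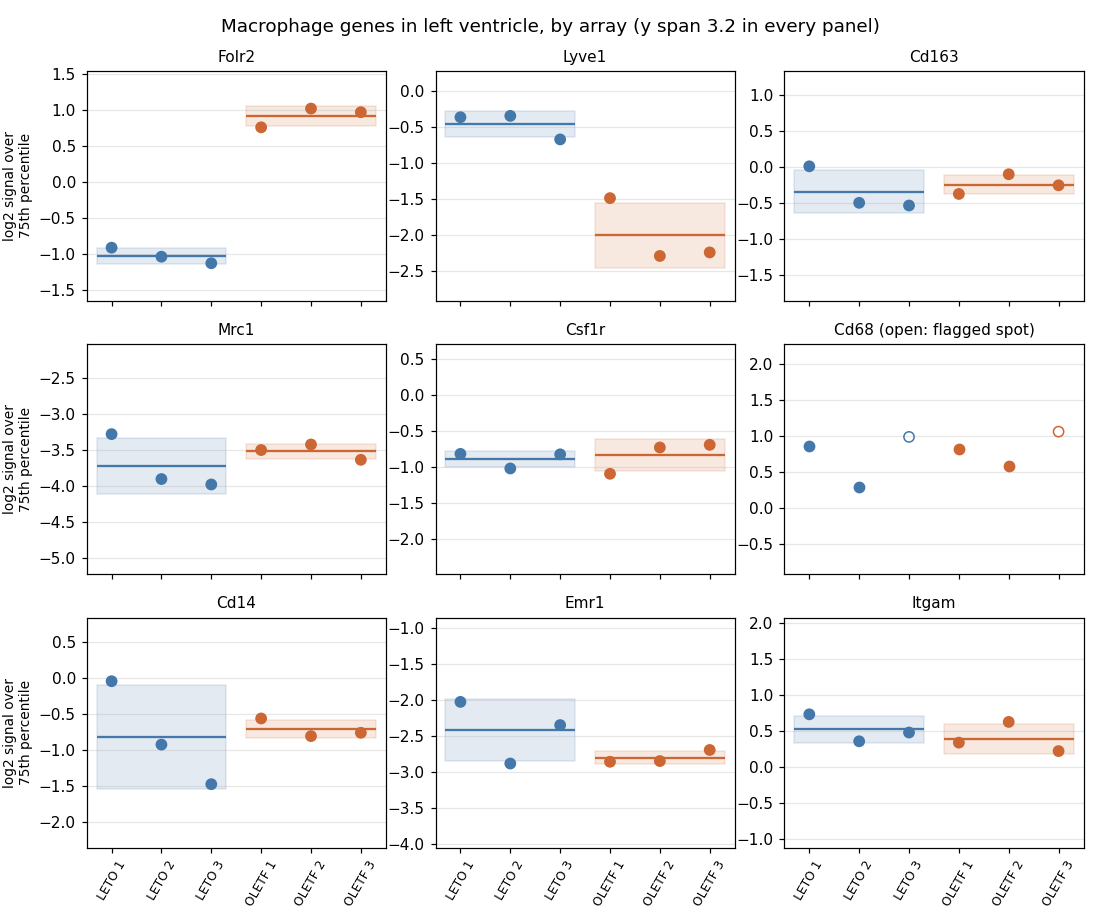
Signal of the 9 macrophage genes on each of the 6 arrays, as log2 over the array's 75th percentile, with LETO in blue and OLETF in orange; lines are strain means, bands are ± SD over 3 arrays, and the y axis spans the same number of units in every panel. Folr2 and Lyve1 are the panels whose strains do not overlap, and for Cd68 the open points are the 2 spots with an outlier flag.

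Among the general genes, Csf1r encodes the receptor for CSF1 and IL-34, on which most macrophages depend (rn4 chr18:57093036-57093095, plus strand). Its LETO arrays read −0.82, −1.02 and −0.83 and its OLETF arrays read −1.10, −0.73 and −0.69. OLETF 1 was the lowest array and the other OLETF arrays were the highest. The difference was 0.05 ± 0.13 (SE). It was −0.21 on the first slide alone, with the sign turned, and 0.08 without LETO 1. With 1 array left out it ran from −0.02 (without OLETF 3) to 0.18 (without OLETF 1). A second Csf1r probe (rn4 chr18:57105231-57105932) differed by −0.12 ± 0.18 (SE).

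Cd14 encodes the coreceptor that hands bacterial lipopolysaccharide to Toll-like receptor 4 (rn4 chr18:29374990-29375049, minus strand). Its LETO arrays read −0.05, −0.93 and −1.48 and its OLETF arrays read −0.57, −0.81 and −0.76. The LETO arrays spread widely, with LETO 1 highest and LETO 3 lowest of all 6, while the OLETF arrays lay close together. The SD was 0.72 in LETO and 0.13 in OLETF. The difference was 0.10 ± 0.33 (SE). It was 0.49 without LETO 1 and −0.23 without LETO 3, so its size turned on either of these arrays and its sign on LETO 3.

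Emr1, now named Adgre1, encodes F4/80, an adhesion receptor widely used to mark rodent macrophages (rn4 chrUn:64821266-64823251, not placed on a chromosome). Its LETO arrays read −2.02, −2.88 and −2.35 and its OLETF arrays read −2.86, −2.85 and −2.69. LETO 1 and LETO 3 lay above the OLETF arrays and LETO 2 lay just below them. The difference was −0.38 ± 0.21 (SE), the largest among the general genes. It was −0.18 without LETO 1, −0.61 without LETO 2 and −0.44 on the first slide alone.

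Itgam encodes CD11b, the alpha chain of an integrin that binds complement and cell adhesion molecules and is also carried by neutrophils and monocytes (rn4 chr1:187385524-187385583, plus strand). Its LETO arrays read 0.74, 0.36 and 0.48 and its OLETF arrays read 0.34, 0.63 and 0.23. The strains overlapped, with LETO 1 highest and OLETF 3 lowest. The difference was −0.13 ± 0.14 (SE). With 1 array left out it ran from −0.24 (without OLETF 2) to −0.02 (without LETO 1), and it was −0.18 on the first slide alone.

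Itgam has a second probe, and the pair is shown because the probes share 34 of their 60 bases, in capitals, and then run into different ends.
Itgam ENSRNOT00000026748: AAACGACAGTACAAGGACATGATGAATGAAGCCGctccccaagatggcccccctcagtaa
Itgam NM_012711: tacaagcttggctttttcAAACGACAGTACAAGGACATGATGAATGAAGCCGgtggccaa
The second probe read −2.87, −3.34 and −3.85 in LETO and −3.33, −3.35 and −3.15 in OLETF. Its strains also overlapped. It differed by 0.08 ± 0.25 (SE), so the 2 probes had opposite signs and both differences were smaller than their SE.

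Cd68 encodes a glycoprotein of the lysosome that is abundant in phagocytes (rn4 chr10:56481726-56481785, minus strand). Its single spot carried the image software's flag for uneven signal on LETO 3 and OLETF 3, so it had no value there and no place in the fit. LETO 1 and LETO 2 read 0.85 and 0.29, and OLETF 1 and OLETF 2 read 0.82 and 0.58. The flagged spots read 0.98 on LETO 3 and 1.06 on OLETF 3, the highest of each strain. With them kept, a choice made after their values were seen, the strains overlapped and the difference was 0.11 ± 0.21 (SE).

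As groups, the 4 resident-type genes had differences from −1.55 to 1.94 with a median of 0.15, and the 4 general genes that were tested had differences from −0.38 to 0.10 with a median of −0.04. The median over all genes was −0.01. The median of the resident-type genes thus hides the largest spread in the set, since Folr2 and Lyve1 lie at its ends, while Cd163 and Mrc1 alone differed by 0.10 and 0.20. Of the 8 tested genes 5 had a difference above 0, where 47.6% of all genes had. The resident-type median was 0.19 above the general median with all arrays, 0.32 above it without LETO 1 and 0.29 above it on the first slide alone. It was 0.10 above it with the flagged spots kept, which adds Cd68 to the general genes, and 0.099 above it with normexp and quantile normalization.

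LETO 1 was the highest of the 3 LETO arrays for 7 of the 8 tested genes, which was so for 38.3% of all genes. It was the highest of all 6 arrays for 5 of them, which was so for 23.9% of all genes. Lyve1 was the exception within LETO, with −0.34 on LETO 2 and −0.36 on LETO 1. After centring each gene on its mean over the 6 arrays, the median of the resident-type genes was 0.32, −0.24 and −0.30 in LETO and 0.02, 0.19 and 0.01 in OLETF. That of the general genes was 0.43, −0.16 and 0.03 in LETO and −0.18, 0.04 and −0.04 in OLETF. In both groups LETO 1 lay above every other array, and the remaining LETO and OLETF arrays overlapped for the general genes only.

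**Figure D2:**
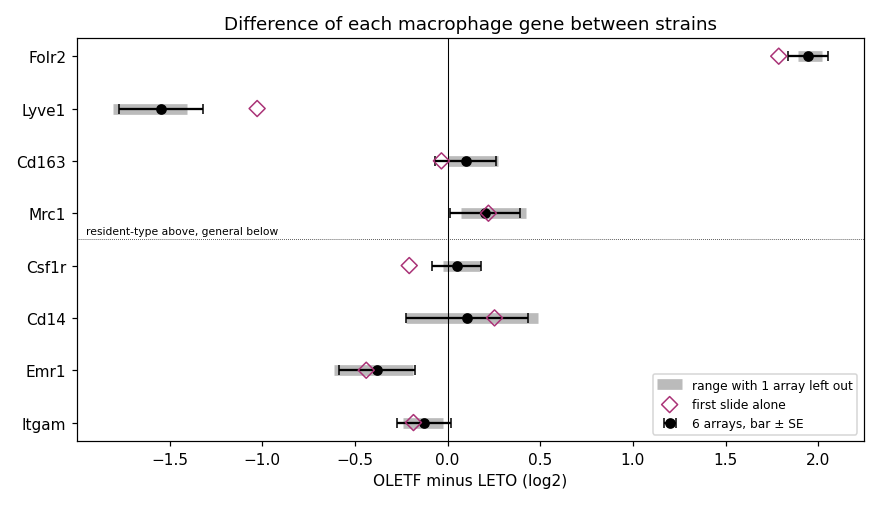
Difference between OLETF and LETO for the 8 tested genes, in log2 units, with its SE as a bar; grey bands run from the lowest to the highest difference with 1 array left out, and open diamonds give the first slide alone. Folr2 lies at 1.94 and Lyve1 at −1.55, Lyve1 moves to −1.03 on the first slide, and the other genes lie between −0.38 and 0.20.

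Age was a question that the choice of genes had not used. In a limma fit with strain and age, 0 of 18816 genes were called between 28 and 27 weeks (0%), and 1498 had an unadjusted p under 0.05 (7.96%). None of the 8 macrophage genes was among them. Cd14 had the largest term, with −0.65 ± 0.27 (SE) from 27 to 28 weeks (adjusted p = 0.607), and its LETO 1 array was both the youngest of LETO and the highest. Folr2 differed by −0.01 ± 0.12 and Lyve1 by −0.29 ± 0.23 between the ages.

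The stretches of 250 bases before the gene starts were searched for letters bound by PU.1, the factor on which the macrophage lineage depends, and by related ETS factors. They were taken from RefSeq (build GRCr8), where all 9 genes were found by symbol, Emr1 as Adgre1. The letters searched were AGGAAG and GAGGAA, on both strands, which overlap in the 5 letters that follow the first G of GAGGAA. The motif AGGAAG occurred in 8 of 9 genes and in 29.37% of 27457 promoters, and GAGGAA in 6 of 9 and in 23.23%. All 9 genes held at least 1 of them, against 39.44% of all promoters. A match is a description of letters and not a site of binding. The promoters of Folr2 and Lyve1 are shown because these genes differed in opposite directions although both hold AGGAAG, in capitals, 2 times in Folr2 and 1 time in Lyve1. The first is GRCr8 chr1:165630383-165630632 and the second is GRCr8 chr1:174410978-174411227, both on the minus strand and printed 5′ to 3′ along the gene.
Folr2: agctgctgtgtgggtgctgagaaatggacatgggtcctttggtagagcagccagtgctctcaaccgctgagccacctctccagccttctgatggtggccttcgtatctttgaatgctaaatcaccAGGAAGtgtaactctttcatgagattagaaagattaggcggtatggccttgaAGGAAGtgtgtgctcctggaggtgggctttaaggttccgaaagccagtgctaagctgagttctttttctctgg
Lyve1: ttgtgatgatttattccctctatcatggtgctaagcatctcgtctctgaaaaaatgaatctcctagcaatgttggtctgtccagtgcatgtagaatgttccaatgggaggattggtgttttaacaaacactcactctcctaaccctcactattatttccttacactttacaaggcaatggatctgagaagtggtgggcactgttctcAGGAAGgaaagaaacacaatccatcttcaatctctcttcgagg

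The other genes of the pathways around these receptors were read from 12 lists with 162 symbols, of which 144 were on the array and 123 were tested. Of these 123, 1 was called in the same limma fit, where 2.55% of all genes were called. An unadjusted p under 0.05 was found for 19 of them (15.4%, where 12.4% of all genes had one). Of these 19, Ccr2, Csf2rb, Cd200r1 and Hmmr entered the test only through the strain where they are high. The called gene was Pla2r1, a relative of the mannose receptor Mrc1 that binds secreted phospholipases. It read −4.97, −5.34 and −5.20 in LETO and −4.48, −4.54 and −4.27 in OLETF. It rose by 0.74 ± 0.13 (SE, adjusted p = 0.0311). The call was lost in 10 of 19 alternatives. Over all of them the adjusted p ran from 0.00254 to 0.357 and the difference from 0.29 to 0.85. The first slide gave 0.69, and a second Pla2r1 probe was well above background on 1 array.

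Further genes of resident-type macrophages had a median difference of 0.11 over 9 tested, with 0 called and 1 at an unadjusted p under 0.05. Clec10a, a lectin for galactose-type sugars, differed by 0.27 ± 0.11 (SE, adjusted p = 0.396). Siglec1, which binds sialic acid, differed by 0.42 ± 0.21 (SE, adjusted p = 0.506). LETO 1 was the highest of the LETO arrays for all 9, as for most of the macrophage genes above.

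Further general macrophage genes had a median difference of 0.01 over 23 tested, with 0 called and 3 at an unadjusted p under 0.05. Among those 3, 2 were higher and 1, Cx3cr1, was lower, with a difference of −0.32 ± 0.14 (SE, adjusted p = 0.396). Lgmn, a protease of the lysosome, differed by 0.40 ± 0.13 (SE, adjusted p = 0.224) and Lyz2, lysozyme, by 0.28 ± 0.11 (SE, adjusted p = 0.349). LETO 1 was the highest of the LETO arrays for 18 of the 23.

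Genes of monocytes that enter from the blood had a median difference of −0.12 over 9 tested, with 0 called. An unadjusted p under 0.05 was found for 4 (44.4%, where 12.4% of all genes had one), 2 higher and 2 lower. Ccr2, the chemokine receptor that draws monocytes out of the marrow, read −5.77, −5.66 and −5.79 in LETO and −4.65, −5.28 and −5.00 in OLETF. All OLETF arrays lay above all LETO arrays, at levels where 2 of the 3 LETO arrays were well above background. Ccr2 thus entered the test through OLETF alone, where it is high, so nothing is read from that order. The difference was 0.76 ± 0.16 (SE, adjusted p = 0.0643), which did not pass. Hp, haptoglobin, the partner of Cd163 in haemoglobin uptake, had a difference of −0.43 ± 0.11 (SE, adjusted p = 0.111).

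Around the CSF1 receptor, 8 genes were tested with a median of −0.01, 0 called and 1 at an unadjusted p under 0.05. Csf2rb, the shared chain of the GM-CSF receptor, differed by 0.52 ± 0.11 (SE, adjusted p = 0.0718), with 1 of 3 LETO arrays well above background. Csf2rb thus entered the test through OLETF alone, where it is high, and nothing is read from its difference. Ccl2, the chemokine that Ccr2 binds, differed by −1.26 ± 0.84 (SE, adjusted p = 0.685). The ligands of Csf1r itself, Csf1 and Il34, had differences of −0.16 and −0.05.

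For folate, which Folr2 binds, 15 genes of transport and metabolism had a median of −0.07, with 0 called and 1 at an unadjusted p under 0.05. Ggh, which trims the glutamate tail of stored folate, differed by 0.46 ± 0.10 (SE, adjusted p = 0.0710). Shmt2, a folate enzyme of the mitochondrion, differed by −0.18 ± 0.11 (SE, adjusted p = 0.636). The closest relative of Folr2 on the array, the folate receptor gene Folr1, differed by −0.14 ± 0.22 (SE, adjusted p = 0.923).

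For hyaluronan, which Lyve1 binds, 9 genes had a median of −0.05, with 0 called and 1 at an unadjusted p under 0.05. Hmmr, another hyaluronan receptor, differed by −0.51 ± 0.16 (SE, adjusted p = 0.209) and Hyal1, a hyaluronan-cutting enzyme, by 0.31 ± 0.18 (SE, adjusted p = 0.611). Hmmr was well above background on 2 of 3 OLETF arrays. It thus entered the test through LETO alone, where it is high, and nothing is read from its difference.

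For haemoglobin and iron, the cargo of Cd163, 13 genes had a median of −0.05, with 0 called and 2 at an unadjusted p under 0.05. These included Hp and Tfrc, the transferrin receptor, which differed by −0.43 ± 0.14 (SE, adjusted p = 0.228). The scavenger and mannose receptor family, which holds Pla2r1, had a median of 0.10 over 10 genes. An unadjusted p under 0.05 was found for 3 of the 10 (30%, where 12.4% of all genes had one), 2 higher and 1 lower. The lower one, Scara3, differed by −1.30 ± 0.47 (SE, adjusted p = 0.297).

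For Cd14 and the Toll-like receptors, 10 genes had a median of −0.02, with 0 called and 1 at an unadjusted p under 0.05. Tlr6, a partner of Toll-like receptor 2, differed by 0.46 ± 0.12 (SE, adjusted p = 0.118). Lbp, which loads lipopolysaccharide onto Cd14, differed by −0.59 ± 0.27 (SE, adjusted p = 0.461). For Itgam, 7 genes of the same integrin family and its ligands had a median of −0.06, with 0 called and 0 at an unadjusted p under 0.05. Itgad, a sister alpha chain, differed by −0.17 ± 0.13 (SE, adjusted p = 0.749) and Icam1, a ligand, by −0.61 ± 0.57 (SE, adjusted p = 0.825).

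Genes of alternative activation had a median of −0.17 over 7 tested, with 0 called and 3 at an unadjusted p under 0.05 (42.9%, where 12.4% of all genes had one). Among those 3, 2 were higher and 1, Klf4, was lower, with a difference of −0.44 ± 0.15 (SE, adjusted p = 0.279). Arg1, arginase, differed by 0.82 ± 0.21 (SE, adjusted p = 0.120). Cd200r1, an inhibitory receptor, differed by 0.71 ± 0.21 (SE, adjusted p = 0.191), with 1 of 3 LETO arrays well above background. Cd200r1 thus entered the test through OLETF alone, where it is high, and nothing is read from its difference. Genes of inflammatory activation had a median of −1.26 over 6 tested, all 6 with a difference below 0, with 0 called and 0 at an unadjusted p under 0.05. Their centred medians in LETO were 2.25, 0.34 and −0.49, and those in OLETF were 1.07, −1.68 and −1.22, so LETO 1 and OLETF 1 were the highest of their strains. Il1b differed by −2.06 ± 1.13 (SE, adjusted p = 0.570) and Cxcl1 by −1.96 ± 1.27 (SE, adjusted p = 0.667).

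Markers of other cell types were read beside the macrophage genes, because several carry the same receptors. Lymphatic endothelium bears on Lyve1, and 0 of its 8 tested markers were called, 1 of them at an unadjusted p under 0.05. Of the 8 differences 6 were below 0. Their median was −0.31 and their summed level, in units of the 75th percentile, ran from 1.73 to 5.09 in LETO and from 1.99 to 4.89 in OLETF. All 8 were well above background on every array. Foxc2, a factor of lymphatic valves and the marker at an unadjusted p under 0.05, was lower in every OLETF array than in every LETO array, with a difference of −0.64 ± 0.18 (SE, adjusted p = 0.161). Prox1, the master factor of lymphatic fate, differed by −0.27 ± 0.15 (SE, adjusted p = 0.597) and was also lower in every OLETF array. Pdpn differed by 0.14 ± 0.13 and Flt4 by 0.04 ± 0.08 (SE), and Nrp2 by −0.0087 ± 0.24.

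Of the lymphatic markers, Ccl21, Mmrn1 and Reln shared another pattern, noticed after their values were seen. Mmrn1 read −4.06, −1.56 and −2.02 in LETO and −1.70, −4.22 and −3.56 in OLETF. Ccl21 read −1.27, 1.76 and 1.19 in LETO and 1.74, −0.85 and −0.30 in OLETF. Reln read −4.43, −2.98 and −3.37 in LETO and −3.01, −4.61 and −4.51 in OLETF. LETO 1, OLETF 2 and OLETF 3 were low in all of these. Lyve1 was low in OLETF 2 and OLETF 3 but as high in LETO 1 as in LETO 2, and in OLETF 1, where these markers were high, it was below every LETO array. Their part in the difference of Lyve1 was not tested.

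Markers of T cells and mast cells were read in the same way. Of 5 T cell markers all 5 had a difference below 0, 3 were lower at an unadjusted p under 0.05 (60%, where 12.4% of all genes had such a p) and 1 was called: Cd3g, part of the complex that signals for the T cell receptor, fell by 0.96 ± 0.14 (SE, adjusted p = 0.0178), with the call lost in 6 of 19 alternatives. The summed T cell level ran from 1.14 to 1.33 in LETO and from 0.836 to 0.969 in OLETF. Of 6 mast cell markers 4 had a difference above 0 and 2 had one below 0. Among the 6, 3 were higher at an unadjusted p under 0.05 (50%) and 1 was called. It was Cpa3, a protease of mast cell granules, with a difference of 1.03 ± 0.15 (SE, adjusted p = 0.0147). Cpa3 was above background on 2 of the 3 LETO arrays and Fcer1a, another of the 3, on 0 of them, so both entered the test through OLETF alone, where they are high. Cpa3 thus has no value among genes above background on all 6 arrays, and its call was lost in 7 of the 18 other alternatives. The summed mast cell level ran from 0.865 to 1.44 in LETO and from 1.08 to 1.82 in OLETF. Cardiomyocyte markers summed to between 2331 and 2601 in LETO and between 2163 and 2621 in OLETF, with 0 of 9 called and 0 at an unadjusted p under 0.05. Of the neutrophil markers, S100a8, S100a9, Elane and Ngp were not tested for want of signal, and 0 of the other 4 were called, with 0 at an unadjusted p under 0.05. In the other marker lists 0 were called. An unadjusted p under 0.05 was found for 3 of 8 fibroblast markers, 2 higher and 1 lower. It was found for 2 of 6 mural and 1 of 8 endothelial markers, all lower. So it was for 1 of 2 red blood cell markers and the 1 B cell marker tested, both lower, and for 0 of 4 dendritic cell markers. The summed red blood cell level ran from 5.97 to 22.3 in LETO and from 5.25 to 6.53 in OLETF. The part of these cells in the differences of Folr2 and Lyve1 was not tested.

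**Figure D3:**
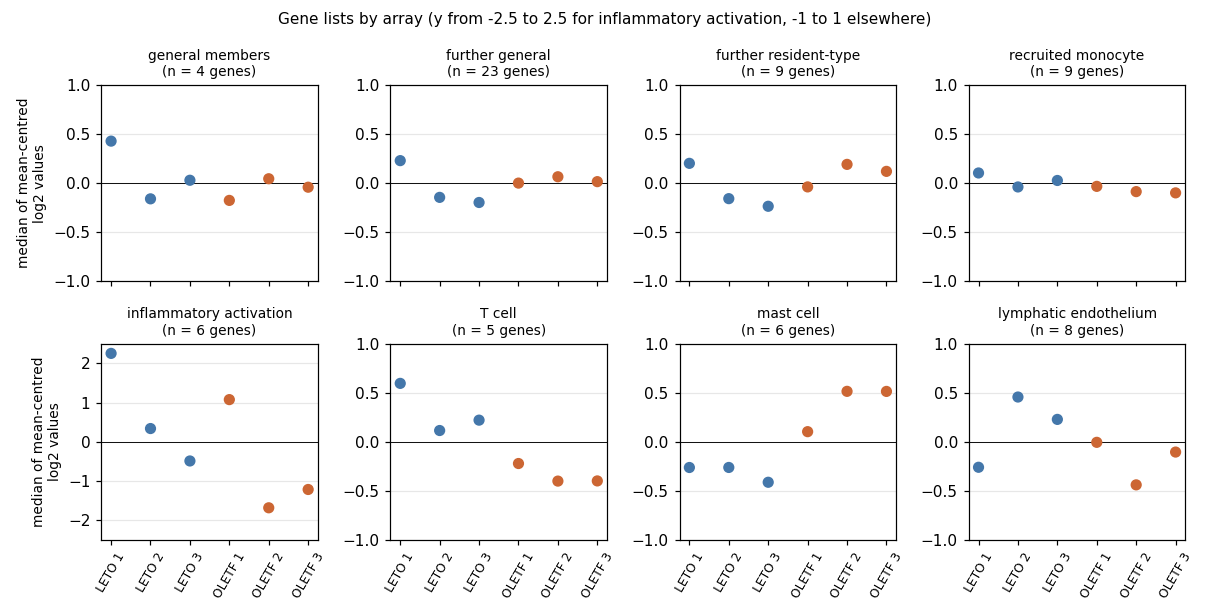
Median over the genes of 8 lists on each array, after centring each gene on its mean, in log2 units, with LETO in blue and OLETF in orange; the axis of inflammatory activation is wider than the others. LETO 1 is the highest array for every list shown except the mast cell and lymphatic endothelium markers, and T cell medians are higher in every LETO array. Mast cell medians are higher in every OLETF array. Their markers Cpa3 and Fcer1a entered the test through OLETF alone, where they are high, so nothing is read from that median.

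The genes whose values lay nearest to those of Folr2 were looked for among 18064 genes whose signal stood above background on every array. Likeness was the mean absolute difference between the centred log2 values over these arrays. Dgkg, a diacylglycerol kinase, was nearest at 0.0509, with differences between strains of 1.90 ± 0.10 for Dgkg and 1.94 ± 0.11 for Folr2 (SE). A transcript named ENSRNOT00000049508 followed at 0.101, Tsks, a substrate of testis kinases, at 0.109, the probe A_64_P163291 at 0.130 and Akr1b8, an aldo-keto reductase, at 0.149. All of these were higher in every OLETF array than in every LETO array, which follows from the way they were picked. None of the macrophage genes or of the genes in the pathway lists was among them. With only 5 of 18064 genes taken, nothing is read from their absence.

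Folr2 and Lyve1 lie 9.31 Mb apart on rn4 chromosome 1. Genes with a tested probe within 1 Mb of each were therefore read as well, a window chosen after the values of both had been seen. Around Folr2, 34 genes were tested with a median difference of 0.01. Of these 5 had an unadjusted p under 0.05 (14.7%, against 12.4% of all genes), 4 of them higher. Only 1 of the 34 was called, where 2.55% of all genes were called. It was Il18bp, which encodes a decoy that binds interleukin 18, 176844 bases from the Folr2 probe. Il18bp read −2.03, −2.07 and −2.10 in LETO and −1.21, −1.44 and −1.43 in OLETF. It rose by 0.70 ± 0.10 (SE, adjusted p = 0.0121). Its call was lost in 6 of 19 alternatives, with adjusted p between 0.00208 and 0.0651. Folr1, 19298 bases from the Folr2 probe, was not called.

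Around Lyve1, 18 genes were tested with a median difference of −0.06. Of these 4 had an unadjusted p under 0.05 (22.2%, against 12.4% of all genes), all lower. Only 1 of the 18 was called, where 2.55% of all genes were called. It was Ctr9, a subunit of the PAF1 complex of transcription, 212451 bases from the Lyve1 probe. Ctr9 read −0.55, −0.70 and −0.64 in LETO and −1.50, −1.47 and −1.38 in OLETF. It fell by 0.82 ± 0.09 (SE, adjusted p = 0.00502). Its call was lost in 1 of 19 alternatives, slide as a block, where the difference was −0.87 and the adjusted p 0.0776. Mrvi1, at 25615 bases from the Lyve1 probe, differed by −0.39 ± 0.13 (SE, adjusted p = 0.231). Between Folr2 and Lyve1, 2 of 136 tested genes were called, both higher, where 2.55% of all genes were called. Around Cd163, Mrc1, Csf1r, Cd14 and Itgam, 45, 11, 31, 44 and 54 genes were tested, with 0 called by limma and 4, 1, 3, 3 and 2 at an unadjusted p under 0.05.

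**Figure D4:**
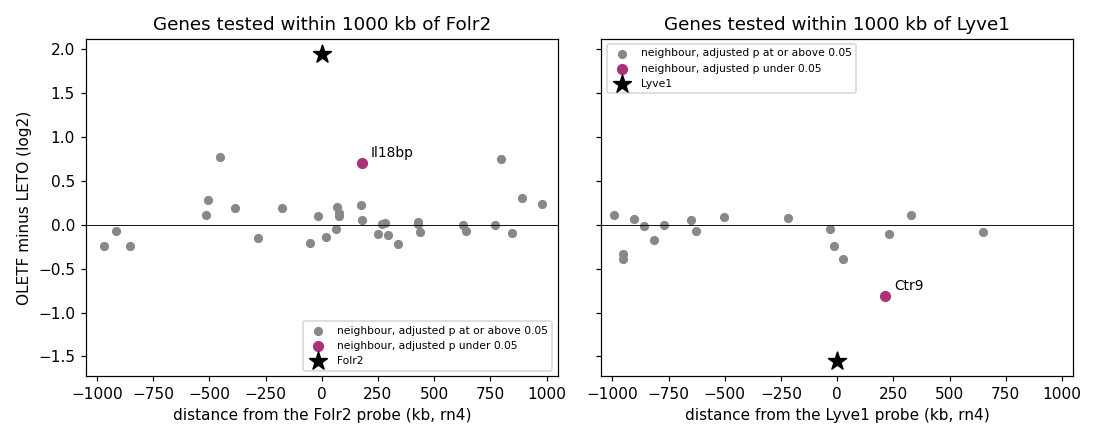
Difference between OLETF and LETO, in log2 units, of the genes with a tested probe within 1 Mb of the Folr2 probe (34 genes) and of the Lyve1 probe (18 genes), against the distance from that probe in kb; stars are Folr2 and Lyve1. Folr2 lies at 1.94 and Lyve1 at −1.55, beyond every neighbour, and the called neighbours are Il18bp at 0.70 and Ctr9 at −0.82.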

How the data were processed

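Total RNA of left ventricle was hybridised to 1-colour Agilent Rat GE 4x44K v3 arrays. Per the file headers, the scanner files that the authors deposited hold linear intensity from Agilent Feature Extraction 10.7.3.1, background-subtracted and detrended. Version 9.1 is given in the submitters' processing notes. The deposited value table holds the same signal over a constant per array. Groups and replicate numbers follow the labels, although the source name of LETO 2 reads replicate 1. The labels give 3 independent experiments per strain, so p-values measure the spread between samples.

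From the deposited intensity, log2 values minus each array's 75th percentile were computed. Control spots and spots with an outlier flag were left out, which removed 17 of 30367 probes. A probe was tested if at least 0.5 of its spots stood well above background on each of the 3 arrays of either strain, and the tested probe with the highest mean stood for a gene. Differences were tested with limma 3.58.1 (lmFit, eBayes) in R 4.3.3, with Benjamini-Hochberg adjustment over 18816 genes at 0.05. Tables were read with the R package data.table (version 1.17.8), and sequences and figures were handled in Python 3.11.15 (matplotlib 3.10.9, numpy 2.4.6, pandas 2.3.3). The scripts were tested on simulated data. Probe positions are those of rn4 in the files, and promoters come from RefSeq on GRCr8, with no conversion between builds.

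The macrophage genes and the lists were chosen with earlier results of these data known. The text names all 9 macrophage genes, from each list up to 4 called genes or the 2 with the smallest p, and the 5 genes nearest to Folr2. Other genes were named after their values were seen: Csf1, Il34, Folr1, Cx3cr1, Klf4, Scara3, Mrvi1 and the markers and neighbours.

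Alternatives were quantile and median scaling, normexp with an offset of 50, the value table, other filters on dim probes, the mean of all probes, eBayes with trend and robust, array weights, replicate block, age, slide, and leaving out each array.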

Additional observations from a re-analysis of the deposited data

How the results depend on the processing

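Folr2 kept its sign in all 21 settings, from 1.79 to 2.03, and Lyve1 in all 21, from −1.81 to −1.03. Several settings, such as other filters or the mean of all probes, cannot change the difference of a gene with 1 probe. Mrc1, Emr1 and Itgam also kept their signs, whereas Cd163, Csf1r and Cd14 took both. No called difference changed sign among the macrophage genes and the other named genes that were followed over the settings. Of 283 higher and 197 lower genes, no filter on dim probes left 149 and 91, slide as a block 52 and 53, and array weights gave 875 and 825. With the replicate block the higher genes numbered 166. The replicate numbers are only numbers, and the deviations of same-numbered arrays from their strain means correlated at −0.09, −0.14 and −0.01, so the block was not used. Leaving out 1 array gave 110 to 374 higher and 87 to 241 lower genes. Of the macrophage genes, 1 was called with no filter, 1 with slide as a block, and 1 to 2 with an array left out. Nothing is read from these counts, since the genes were chosen on this contrast. Of the pathway genes, 0 were called with no filter, the replicate block or slide as a block, 2 with age as a covariate, 16 with array weights, and 0 to 3 with an array left out, where 1 was called otherwise. The resident-type median lay 0.19 above the general one, 0.33 with array weights, 0.099 with normexp and quantile normalization, 0.10 with flagged spots kept, and 0.18 to 0.32 with an array left out. Between the ages, 2 genes were called with no filter and 0 to 3 with an array left out. The cause of these shifts was not tested. Keeping spots with an outlier flag and the window of 1 Mb around Folr2 and Lyve1 were chosen after seeing the data. With 3 arrays per strain, single outlying arrays were not tested.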
